A study of Mus musculus with 2 samples.

Results

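A small share of the open chromatin of the mouse frontal cortex lay inside exons, away from the places where transcripts start or end. These 1245 open exonic regions were 2.12% of the 58659 regions that were called as DNase I hypersensitive in both libraries of the study. A region was counted when its centre lay in an exon of a protein-coding gene, more than 1000 bp from every annotated transcription start and more than 500 bp from every annotated transcript end of a protein-coding gene. Their centres fell in coding sequence in 677 cases (54.4%), in a 3′ UTR in 371 (29.8%), in a 5′ UTR in 30 (2.41%) and, in 167 (13.4%), in an exon that only transcripts without coding sequence there use, such as a retained intron. They belonged to 1105 host genes, 5.04% of the 21938 protein-coding genes outside the mitochondrial genome.

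DNase-seq maps open chromatin by sequencing the ends that DNase I leaves where it cuts DNA between or around nucleosomes. The tissue was frontal cortex from female B6CASTF1/J mice, the F1 hybrid of C57BL/6J and CAST/EiJ, aged 25 days, and nuclei were isolated from it. The study holds 1 group of 2 libraries with no treatment or second tissue. The labels list a separate tissue sample for each library but the same donor entry for both, so the spread given here may be technical or biological. Each value is the authors' normalized signal of a peak, in units whose scale is not stated, and read depth is not given in the sources used here. Frontal cortex is a mixture, and in bulk tissue a region open in fewer cells cannot be told apart from one that is less open in each cell.

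Open chromatin marks the DNA that transcription factors and other regulators can reach, and most of it in any tissue lies at promoters and at distal enhancers in introns and between genes. An exon can carry such a regulatory element as well, so that the same bases specify amino acids or a UTR and hold factor binding sites. Within an open region, a bound protein shields a short stretch from the enzyme, and such protected stretches are called footprints.

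The 2 peak sets were of similar size, with 85603 peaks in replicate 1 and 87847 in replicate 2. The promoters of all 13 pan-neuronal and all 12 excitatory neuron markers were open in both libraries, as were 10 of 15 inhibitory neuron, 7 of 12 astrocyte, 5 of 12 oligodendrocyte, 4 of 12 microglia and 5 of 12 endothelial and mural markers. Of the markers from outside the brain, 0 of 10 liver and 2 of 8 striated muscle promoters were open. Single libraries gave more exonic regions, 2040 in replicate 1 alone and 2168 in replicate 2 alone, and the authors' shorter peak lists gave 639 in both. Taking only the end of each gene model, in place of every transcript end, gave 1677. With 1 group, no contrast between conditions exists, and since regions are not replicates, differences between kinds of region are given below as values in each library and were not tested.

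The sequences below are examples of strong open coding regions with a motif inside a footprint, and are not typical of the set. They are the 8 with the highest mean value that lay wholly in coding sequence or in coding and intron sequence, measured at most 300 bp, were over 90% unique in the genome, and held a searched motif inside a footprint of both libraries. They are given on the plus strand of mm10, with that motif in capitals.
Spi1, chr2:91115161-91115320: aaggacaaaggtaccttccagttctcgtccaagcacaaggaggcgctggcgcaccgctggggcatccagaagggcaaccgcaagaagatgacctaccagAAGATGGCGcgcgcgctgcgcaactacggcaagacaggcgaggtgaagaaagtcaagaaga
Synpo2l, chr14:20661021-20661300: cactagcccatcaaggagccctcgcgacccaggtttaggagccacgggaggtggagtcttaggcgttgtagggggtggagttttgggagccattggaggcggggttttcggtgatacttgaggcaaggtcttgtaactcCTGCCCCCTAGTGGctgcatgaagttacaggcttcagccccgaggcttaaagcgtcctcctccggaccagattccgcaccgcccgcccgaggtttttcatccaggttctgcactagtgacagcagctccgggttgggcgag
Myo3b, chr2:70126881-70127100: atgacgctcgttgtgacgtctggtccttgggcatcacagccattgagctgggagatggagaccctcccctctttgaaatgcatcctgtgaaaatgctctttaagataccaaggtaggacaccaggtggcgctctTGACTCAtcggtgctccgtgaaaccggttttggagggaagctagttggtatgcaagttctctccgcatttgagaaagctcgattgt
Numa1, chr7:101998601-101998800: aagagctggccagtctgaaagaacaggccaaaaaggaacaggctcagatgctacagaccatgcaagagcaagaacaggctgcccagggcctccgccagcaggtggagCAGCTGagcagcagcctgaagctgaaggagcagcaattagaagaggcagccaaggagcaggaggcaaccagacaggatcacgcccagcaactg
Dgki, chr6:37097481-37097640: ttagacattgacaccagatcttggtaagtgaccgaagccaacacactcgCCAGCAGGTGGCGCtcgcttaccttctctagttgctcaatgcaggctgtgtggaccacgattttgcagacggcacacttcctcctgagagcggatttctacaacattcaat
Dnaic1, chr4:41614241-41614440: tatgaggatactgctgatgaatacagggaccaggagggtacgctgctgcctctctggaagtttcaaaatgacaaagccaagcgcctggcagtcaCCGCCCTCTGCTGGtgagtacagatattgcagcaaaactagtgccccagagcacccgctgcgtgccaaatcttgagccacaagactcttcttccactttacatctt
Dnah1, chr14:31272261-31272460: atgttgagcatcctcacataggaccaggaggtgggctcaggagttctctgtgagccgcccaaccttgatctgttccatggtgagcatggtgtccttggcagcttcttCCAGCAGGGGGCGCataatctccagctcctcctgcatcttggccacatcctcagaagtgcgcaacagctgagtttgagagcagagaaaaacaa
Soga1, chr2:157030901-157031100: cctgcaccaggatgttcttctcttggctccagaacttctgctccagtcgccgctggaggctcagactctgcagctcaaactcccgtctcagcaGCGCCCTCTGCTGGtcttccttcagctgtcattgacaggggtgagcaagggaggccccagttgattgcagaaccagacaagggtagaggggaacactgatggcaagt

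The capitals mark a YY1 motif (AANATGGCG) in Spi1, an AP-1 motif (TGANTCA) in Myo3b and an E-box (CAGCTG) in Numa1. They mark a CTCF motif, on either strand, in Synpo2l, Dgki, Dnaic1, Dnah1 and Soga1. The motifs of Myo3b and Dgki lay in the intron part of the region, and that of Dnaic1 reached the splice donor. CTCF is the zinc finger protein that anchors chromatin loops and boundaries. In Spi1, which encodes the macrophage and microglia factor PU.1, all 160 bases were coding sequence of its last exon, exon 5 of 5, with values of 3.99 in replicate 1 and 3.81 in replicate 2. The Synpo2l region, in the last exon of an actin-binding protein gene, was also wholly coding over 280 bases and had values of 2.93 and 3.32. In Numa1, the gene of a spindle protein, 200 coding bases of exon 14 had values of 2.60 and 2.43. The other 5 ran across a splice site. Dgki, the gene of a diacylglycerol kinase, had 75 coding and 85 intron bases and values of 2.46 and 2.41. Dnaic1 and Dnah1, both genes of axonemal dynein chains, had values of 2.31 and 2.04 and of 2.22 and 2.00. The Myo3b region had 2.87 and 2.49 and the Soga1 region 2.26 and 1.90. In these 8 the libraries were within 1.5-fold of each other.

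CTCF sites among the strongest open exonic regions are shown as 30 bases each on the strand of the motif, with the motif in capitals, because they recur in 3′ UTRs as well as in coding sequence. This set was chosen after its values were seen.
Skap2, chr6:51858058-51858087, minus strand: ctaagtggCCAGCAGATGGCAGcagcttgt
Frmd8, chr19:5850354-5850383, minus strand: agctgtgaCCAGCAGGGGGCAGctgagccc
Tnfrsf1b, chr4:145214571-145214600, plus strand: aggacgggCCACCAGGGGGCAGacgtgttc
Synpo2l, chr14:20661152-20661181, minus strand: tcatgcagCCACTAGGGGGCAGgagttaca
Cavin1, chr11:100957419-100957448, minus strand: ttagggttCCAGCAGGGGGCAGcagcgagt
Gpr162, chr6:124859904-124859933, plus strand: agcttagtCCAGCAGGGGGCACcccagggc
Rnf150, chr8:83089564-83089593, minus strand: gtatcagaCCAGCAGAGGGCGCtctgaccc
Trim56, chr5:137107236-137107265, minus strand: ggaagtctCCAGCAGGGGGCACtattgtgc

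Of these 8 sites, 6 lay in regions centred in a 3′ UTR, those of Skap2, Frmd8, Tnfrsf1b, Cavin1, Rnf150 and Trim56. The Synpo2l region was centred in coding sequence and the Gpr162 region in an exon of a noncoding transcript. Skap2, the gene of an adaptor of Src family kinases, had the highest values of the 8, 4.36 and 3.91. Trim56, a ubiquitin ligase gene of the antiviral response, had 2.84 and 2.41.

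Values of open exonic regions were low beside those at starts and close to those in introns. The median value was 0.746 in replicate 1 and 0.828 in replicate 2 (0.787 ± 0.0581, SD, n = 2). Regions within 1000 bp of a start had medians of 1.27 and 1.32, intergenic regions 0.678 and 0.765, and intronic regions 0.689 and 0.805. The median of the exonic regions was 1.06 ± 0.0379 times that of the intronic ones over the 2 libraries. That ratio was below 1 in the peaks of each library taken alone, 0.990 in replicate 1 and 0.964 in replicate 2, so that the order of exonic and intronic values changed with the set of peaks. The middle 8 in 10 of the exonic regions spanned 0.387 to 1.81 in replicate 1 and 0.436 to 1.82 in replicate 2.

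Among the exonic regions, those centred in coding sequence were the weaker ones. Their medians were 0.689 and 0.759, against 0.836 and 0.914 in 3′ UTRs and 0.802 and 0.925 in noncoding exons. The 30 regions in 5′ UTRs had 0.946 and 0.871. Coding regions were below the other 3 kinds in both libraries. The order of the other 3 differed between the libraries, since 5′ UTRs were highest in replicate 1 and lowest of the 3 in replicate 2. Median width was 220 bp, compared with 280 bp at starts, and 230 bp for the coding regions.

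**Figure D1:**
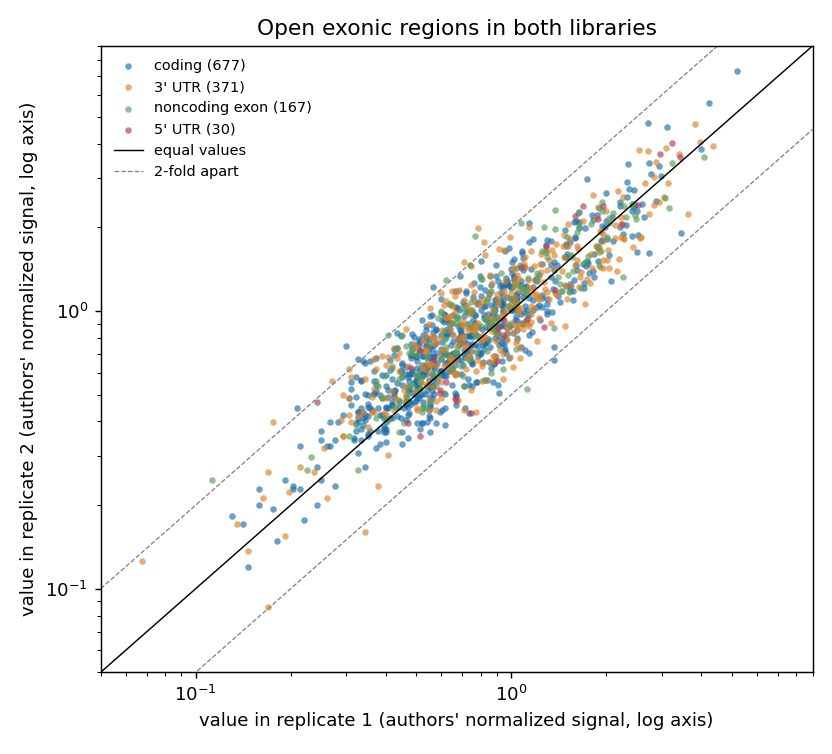
Each point is one open exonic region, with its value in replicate 1 on the horizontal and in replicate 2 on the vertical axis, both as the authors' normalized signal on log axes and coloured by the annotation of the centre. The points follow the line of equal values, and 17 of 1245 lie more than 2-fold apart, outside the dashed lines.

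The libraries ranked these regions alike, with a Spearman rank correlation of 0.878 across the 1245 regions, given as a description because the regions share 2 libraries. Between the libraries 17 regions (1.37%) differed by more than 2-fold, near the 1.75% of all regions. Fam13a had the lowest value in replicate 1 relative to replicate 2, with 0.785 and 1.99 in its 3′ UTR. The opposite extremes were 6030445D17Rik at 0.345 and 0.160, Wwox, an oxidoreductase gene, at 1.12 and 0.525, and Kif27, a kinesin gene, at 1.37 and 0.668. Both shorter, stricter peak lists held 630 of the 1245 (50.6%), a share below the 59.5% of all regions and close to the 47.5% of intronic ones.

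On both sides of the distance limits the values overlapped. The 5 regions just inside the limit to a start, centred 1002 to 1010 bp away, had values from 0.113 to 1.61 in replicate 1, and the 5 just outside, at 996 to 998 bp, from 0.452 to 0.955. At the 3′ limit the 5 inside, at up to 508 bp, had 0.198 to 1.85 and the 5 outside, at 496 to 500 bp, had 0.254 to 1.73.

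The 20 strongest regions lay in coding sequence in 7 genes, in a 3′ UTR in 8, in a 5′ UTR in 3 and in a noncoding exon in 2. Angptl6, the gene of a secreted angiopoietin-like protein, was first, with 5.18 in replicate 1 and 7.29 in replicate 2 over coding exon 2 at chr9:20878141-20878540. Crlf2, a cytokine receptor gene, followed with 4.24 and 5.61 in coding exon 2 at chr5:109557541-109557720. The 3′ UTR of Slc4a3, an anion exchanger gene, had 3.82 and 4.72, and that of Ptges2, a prostaglandin E synthase gene, 3.97 and 4.07. Fbxl22, an F-box protein gene, had 3.11 and 4.59 in its last coding exon. Gas2l1, whose product links actin and microtubules, had 4.09 and 3.60 in a noncoding exon. All 20 had values of at least 2.54 in replicate 1 and 3.32 in replicate 2, several times the medians of the set.

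Starts that the GENCODE annotation used here lacks were common among the strongest regions. A RefSeq transcript start lay within 1000 bp of the centre in 6 of the 20 strongest (30%), in 12 of the strongest 100 (12%) and in 73 of all 1245 (5.86%). The distances were 16 bp in Psmc2, a proteasome ATPase gene, 29 bp in Sf3b5, a splicing factor subunit gene, and 44 bp in Rap2b, a small GTPase gene. They were 279 bp in Angptl6, 676 bp in B430305J03Rik and 703 bp in Pura, which encodes a nucleic acid binding protein of neurons. The B430305J03Rik and Rap2b regions, chr3:61363581-61364080 and chr3:61364381-61364720, are neighbours. The 73 regions near a RefSeq start had medians of 0.876 and 0.885, with 5.74 CpG per 100 bp, against 0.743 and 0.825, and 2.58 CpG per 100 bp, in the other 1172. Without them the median of the remaining regions moved by less than the spread between libraries.

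**Figure D2:**
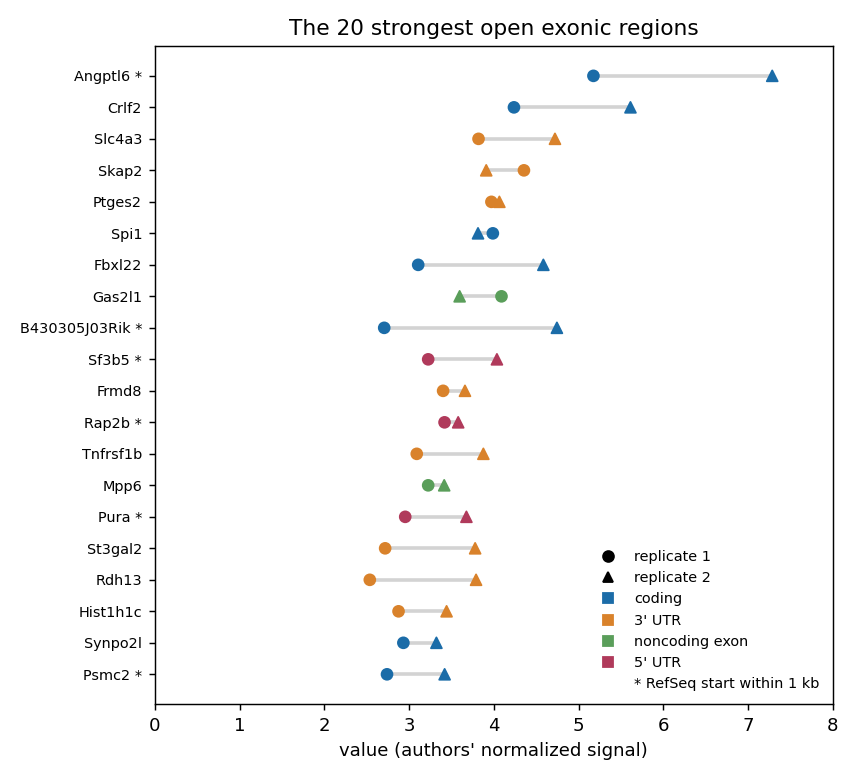
The 20 regions with the highest mean value, top to bottom, with the authors' normalized signal in replicate 1 (circles) and replicate 2 (triangles), coloured by annotation. A star marks the 6 with a RefSeq start within 1 kb, and Angptl6 stands above the others in both libraries.

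Per base of sequence, exons held more open regions than introns. Of the sequence that met the same distance limits, exons made up 43.7 Mb with 28.5 regions per Mb, introns 857.3 Mb with 17.5 per Mb and intergenic sequence 1613.9 Mb with 11.8 per Mb. Coding sequence had 34.5 regions per Mb over 19.6 Mb, 5′ UTRs 51.9 over 0.578 Mb, 3′ UTRs 22.7 over 16.3 Mb and noncoding exons 23.2. In the peaks of each library alone, coding sequence had 59.2 per Mb in replicate 1 and 62.3 in replicate 2 (60.8 ± 2.20, SD, n = 2), while introns had 25.9 and 28.5 (27.2 ± 1.80). Coding sequence thus exceeded introns in each library by more than the spread between them. In the shorter peak lists the coding density was 16.2 per Mb, which is not comparable with the intronic densities above, taken from the longer lists. Both shorter lists held 47.0% of the coding regions and 47.5% of the intronic ones. Eligible sequence counted every base, with no correction for assembly gaps or for sequence found more than once in the genome. The part of this in the densities was not tested.

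Long coding exons held more regions per Mb than short ones. Coding exons of at most 150 bp had 21.7 regions per Mb, those of 151 to 300 bp 30.5, those of 301 to 600 bp 34.2, those of 601 to 1500 bp 52.7 and longer ones 54.0. Exons over 1500 bp held 224 of the 677 coding regions (33.1%) in 21.2% of the eligible coding sequence. Median values did not follow this order, at 0.712 and 0.817 in the shortest exons and 0.706 and 0.742 in the longest. The shortest exons are narrower than the median region of 220 bp, and the part of exon length and base composition in this order was not tested.

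**Figure D3:**
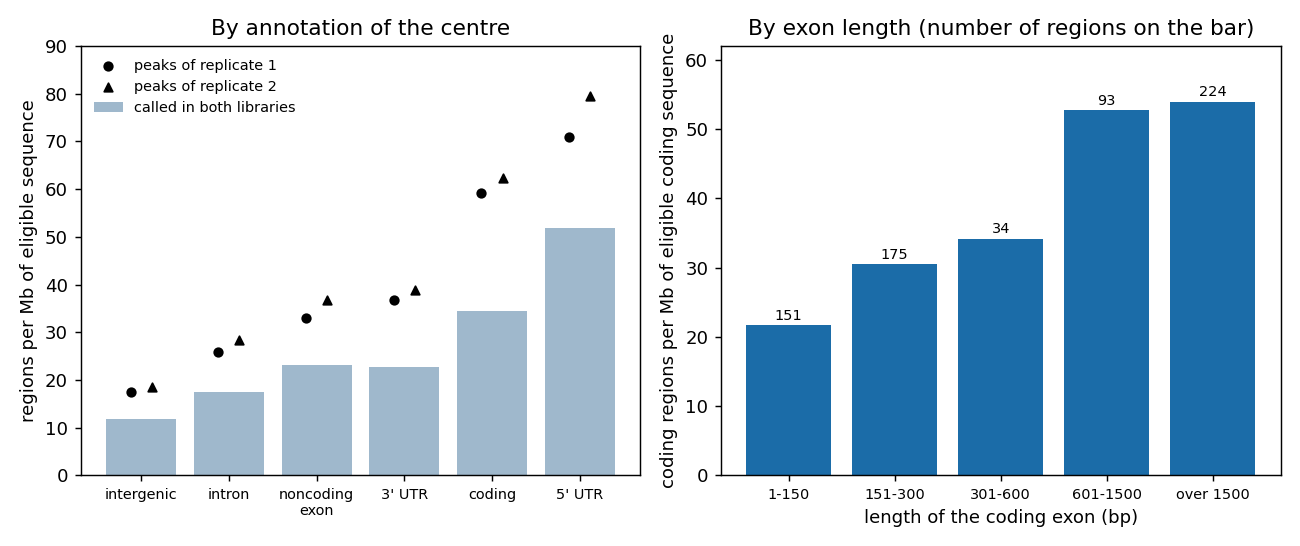
Left, open regions per Mb of eligible sequence by annotation of the centre, as bars for regions called in both libraries and symbols for the peaks of each library. Right, coding regions per Mb by length of the coding exon, where density goes from 21.7 in exons of at most 150 bp to 54.0 in those over 1500 bp.

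Last exons held 596 of the 1245 regions (47.9%), internal exons 480 (38.6%), single-exon transcripts 124 and first exons 45. The kind of exon is that of a single transcript chosen for each region. Of the 677 coding regions 427 lay in internal exons (63.1%). Last exons held 342 of the 371 3′ UTR regions, as the annotation places most 3′ UTRs there. Of all regions 810 (65.1%) lay wholly inside the host exon. Among coding regions 241 (35.6%) were coding sequence throughout and 394 (58.2%) reached into an intron. The wholly coding ones had medians of 0.661 and 0.731 and 5.46 CpG per 100 bp. Those reaching into an intron had 0.698 and 0.797 and 3.0 CpG per 100 bp.

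In base composition the exonic regions stood between introns and starts. They had a median of 2.70 CpG per 100 bp (3.61 in coding regions), compared with 1.58 in intronic regions and 7.23 at starts. The ratio of observed to expected CpG was at least 0.6, a usual mark of CpG islands, in 302 regions (24.3%), in 5.44% of intronic regions and in 67.6% of those at starts. The 310 exonic regions with the most CpG had median values of 0.862 and 0.874, and the 313 with the least 0.769 and 0.874. The promoter of the host gene was open in both libraries for 875 of 1105 host genes (79.2%), against 13489 of all 21938 genes (61.5%). Exonic regions were kept away from starts by their centre only, so a region can reach within 1000 bp of a start. The Hist1h1c region, 300 bp wide, was centred 1023 bp from one, and 304 regions were centred 1000 to 2000 bp away. Such a region may itself count as the open promoter of its host. The part of this in the 79.2%, and in the split by host promoter below, was not tested. Regions whose host promoter was not open in both libraries, 253 in all, had medians of 0.808 and 0.868, no lower than the 0.740 and 0.811 of the others. The regions of Spi1, Angptl6, Tnfrsf1b and Synpo2l were among these 253. A RefSeq start lay within 1000 bp of 23 of the 253 (9.09%), Angptl6, Sf3b5, Rap2b and Kdm6b included, and the rest had medians of 0.800 and 0.857.

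Footprints were found in most open exonic regions. At least 1 footprint overlapped the region in both libraries in 1041 of 1245 (83.6%), near the 84.6% of all regions, and 38 had none in either. The share was 80.8% in coding regions and 86.8% in 3′ UTR regions. Coding regions had 9.18 and 8.03 footprints per kb in the 2 libraries, against 10.8 and 9.82 in all regions. Footprints covered 11.4% of the coding bases of the regions in replicate 1 and 9.97% in replicate 2. In the intron bases of the same set they covered 8.0% and 6.6%, and in UTR bases 14.1% and 13.1%. Intron bases lie at the edges of regions that are centred in exons. In the 394 coding regions that reach into an intron, the bases within 39 bp of the centre were footprinted in 19.9% and 19.1% where coding, and in 20.9% and 17.5% where intronic. From 40 to 79 bp the shares were 10.3% and 8.11% in coding and 10.4% and 8.15% in intron bases. At equal distance below 80 bp from the centre, coding and intron bases thus differed by no more than the spread between libraries. From 80 bp to under 120 bp coding bases had 6.48% and 5.71% and intron bases 4.67% and 3.67%.

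**Figure D4:**
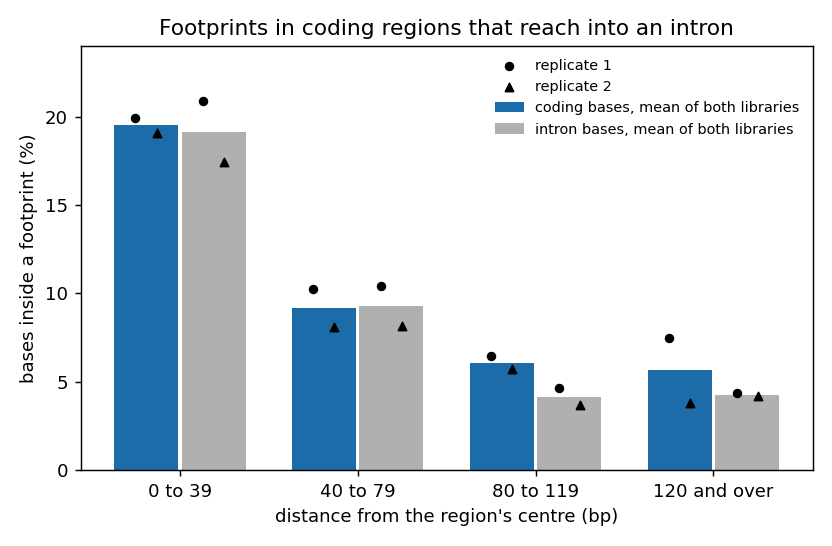
Percent of bases inside a footprint in the 394 coding regions that reach into an intron, by distance from the region's centre, for coding and intron bases, as the mean of both libraries (bars) and each library (symbols). The bars of both kinds are alike up to 79 bp and both are lowest beyond 80 bp.

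Bases next to splice sites were footprinted less often than bases further into the exon. Every region here is centred in an exon, and the share was lower away from the centre, as given above. The shares below were not matched for that distance, and its part in them was not tested. The shares are over the bases of all 427 coding regions in internal exons, of which 242 covered the splice acceptor. Exon bases thus include those of regions that do not reach the site. At the acceptor the last 10 intron bases were footprinted in 11.2% and 8.49% and the first 10 exon bases in 12.9% and 10.9%. Bases 30 to 39 of the exon had 17.0% and 18.4%. The splice donor was covered by 266 of the 427. Its last 10 exon bases had 10.3% and 8.46% and its first 10 intron bases 8.14% and 9.32%. Both were below the share 10 bases further into the exon, 14.8% and 9.92%, and the next 10 intron bases, with 12.3% and 10.2%. In replicate 2 these differences were small. Shares also fell between neighbours elsewhere. Intron bases 31 to 40 before the acceptor had 6.05% and 4.43%, with 8.67% and 7.02% on the intron side and 10.7% and 7.82% on the exon side. Whether the lower share is particular to the donor was not tested.

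CTCF motifs marked the stronger open exonic regions. Counting on both strands in the central 200 bp, 95 regions (7.63%) held the CTCF motif, as did 7.87% of intronic regions, 1.89% of those at starts and 6.11% of all 58659. In the peaks of a single library the share was 5.39% in replicate 1 and 4.57% in replicate 2. The share was 11.6% in 3′ UTR regions and 4.73% in coding ones, and 13.4% in regions within 500 bp of a 3′ end, which are not exonic regions by the rule. Regions with the motif had medians of 1.25 and 1.18, and those without it 0.723 and 0.811, so both libraries gave higher values with it. Intronic regions showed the same, with 1.25 and 1.17 against 0.667 and 0.788. Among the strongest 100 exonic regions 23 had the motif.

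The CTCF motif mostly lay in footprints and the AP-1 motif rarely did. Over the whole region, 97 open exonic regions had a CTCF match, which lay wholly inside a footprint of both libraries in 67 (69.1%) and touched one in 92. The AP-1 motif, the site of Fos and Jun dimers, occurred in 124 regions and lay inside a footprint of both libraries in 1, the Myo3b region printed above. Intronic regions gave like shares, 72.5% for CTCF and 0.753% for AP-1. NRF1 sites (GCGCATGCG) lay in such a footprint in 6 of 12 exonic regions (50%), against 32.6% of intronic regions with the motif. NFI sites, known by their paired half-sites, did so in 9 of 22 (40.9%), against 33.7%. EGR sites (GCGNGGGCG) did so in 9 of 38 (23.7%), near the 25.95% of intronic regions. These exonic shares rest on few regions. A match is a string of letters and was not tested as a binding site.

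The shares of several motifs differed between exonic and intronic regions. The homeodomain motif (TAATTA) was in 0.884% of exonic and 3.01% of intronic regions, and the MEF2 motif in 1.12% and 2.42%. AP-1 was in 8.11% and 13.4%. EGR, a motif of G and C, was the other way round, in 2.09% and 0.685%, and in 3.10% of coding regions. The SP/KLF motif (GGGGCGGG), held by 18.7% of regions at starts, was in 1.45% of exonic regions. The SOX motif (AACAATG) was in 2.09% of exonic and 2.06% of intronic regions. The E-box CAGATG, bound by neuronal basic helix-loop-helix factors, was in 22.3% of exonic and 25.3% of intronic regions. No exonic region held the REST motif, and 5 of all 58659 did. Base composition, which differs between exons and introns as given above, moves with these shares, and its part in them was not tested.

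**Figure D5:**
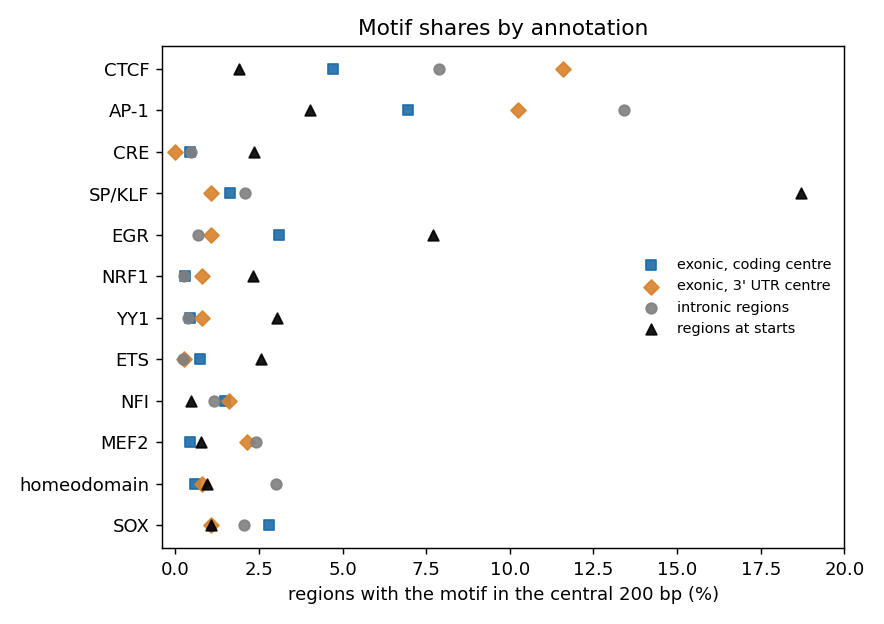
Percent of regions with each motif in the central 200 bp, for exonic regions centred in coding sequence or a 3′ UTR, intronic regions and regions within 1 kb of a start. Among these 4 kinds of region CTCF is most frequent in 3′ UTR regions, at 11.6%, and SP/KLF stands out at starts, at 18.7%.

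Most host genes had a single open exonic region. There were 994 such genes, 88 with 2 regions, 17 with 3 and 6 with 4. Host genes were long, with a median of 43386 bp against 17425 bp for all protein-coding genes. The distance limits leave short genes little or no eligible exon sequence, and the part of this in the difference was not tested. The 6 genes with 4 regions were Sox11, Slitrk1, Tchh, Syne1, Vps33a and Gab2. Sox11, a transcription factor gene of immature neurons with a single exon, had 1 region in coding sequence at 1.18 and 1.01 and 3 in its 3′ UTR, at 0.995 and 1.06, at 0.915 and 0.936, and at 0.576 and 0.474. Slitrk1, a gene of a synaptic adhesion protein, had 3 in its coding exon, at 1.02 and 1.33, at 1.12 and 1.01 and at 0.616 and 0.388, and 1 in its 3′ UTR, at 0.458 and 0.520. Tchh, which encodes the hair follicle protein trichohyalin, had 4 in a single coding exon with values from 0.394 to 1.29, and its own promoter was not open in both libraries. Its repetitive coding sequence was at least 94.3% unique in these regions.

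In Syne1, the gene of a giant nuclear envelope protein, the 4 regions lay in 4 different coding exons out of 146, with values of 0.424 to 0.893 in replicate 1 and 0.514 to 1.10 in replicate 2. The regions of Gab2, a signalling adaptor gene, and of Vps33a, a vacuolar sorting gene, were among the weakest, at 0.147 to 0.260 and 0.137 to 0.274, and at 0.130 to 0.379 and 0.183 to 0.263. Of the genes with 3 regions, Sptbn4, a spectrin of the axon initial segment, had all 3 in coding exons, with 0.746 to 1.49 and 1.01 to 1.57. Scn8a, a sodium channel gene, had 2 in coding exons and 1 in its 3′ UTR, with 0.769 to 1.35 and 0.708 to 1.66. Efnb2, an ephrin gene, reached 1.94 and 2.47 in a retained intron, and Zfhx2, a zinc finger homeobox gene, had 3 regions between 1.08 and 1.44 in both libraries.

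The 5 widest open exonic regions each spanned over 1000 bp. Pcdh10, a protocadherin gene with a large first exon, had a region of 1848 bp with 0.797 and 0.702 and 18 and 7 footprints. Pcdh17, of the same family, had one of 1660 bp with 0.944 and 0.822. Ubqln2, a ubiquilin gene with a single exon, had 1652 bp at 0.452 and 0.640, and Spry2, an inhibitor of receptor tyrosine kinase signalling, 1240 bp at 0.746 and 0.662. Parp3 had 1260 bp with 0.373 and 0.411 and a footprint in neither library. In replicate 1 these 5 lay between 0.373 and 0.944, on both sides of the median of the set.

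Hosts were counted in lists of neuronal genes and of other genes. Of 25 voltage-gated channel genes 8 had an open exonic region (32%), of 25 microtubule and spectrin cytoskeleton genes 7 (28%), and of 33 chromatin regulators 8 (24.2%), where 5.04% of all protein-coding genes did. These lists hold long genes, with medians of 111042, 91304 and 88062 bp, and length was not adjusted for, so that no list is called particular. Where a listed gene had several regions, the values given here and below are those of its strongest unless stated. Among channels, Kcnq3, a potassium channel gene of the M current, had 2.10 and 2.26 in a noncoding exon. In the cytoskeleton list, Mapt, which encodes tau, had 1.10 and 1.22 in coding exon 3 and Dst, a dystonin gene, 1.58 and 1.30 in coding exon 56 with a CTCF motif. Among chromatin regulators, Ankrd11 had 2.44 and 2.43 in a noncoding exon, and the histone demethylase gene Kdm6b 1.68 and 2.39 in its 5′ UTR, 858 bp from a RefSeq start.

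Of 28 synaptic scaffold and adhesion genes 5 were hosts, among them Nrxn2, a neurexin gene, with 1.25 and 1.64, and Lrrc4, with 1.22 and 1.30 in its 3′ UTR. Of 26 axon guidance genes 3 were, led by Ephb2, an ephrin receptor gene, with 2.73 and 2.23 in its 3′ UTR and Nrp1, a semaphorin co-receptor gene, with 2.31 and 2.19. The Nrxn2 and Nrp1 regions were centred in noncoding exons of retained-intron transcripts. Activity-regulated genes, which neurons induce on firing and which are short, with a median of 7035 bp, had 4 hosts of 24. Fosb had 1.27 and 1.27 and Jun 1.18 and 1.02 in their 3′ UTRs, and Junb 0.859 and 0.874 and Nptx2 0.633 and 0.668 in coding sequence. Of 26 homeobox and forebrain factors 5 were hosts, with Pou3f2, a factor of upper cortical layers, at 0.882 and 0.645 over 1080 bp and Zeb2 at 0.785 and 0.811. Of 24 extracellular matrix and collagen genes 5 were. The strongest regions of Col4a2, Col5a1, Hspg2 and Col11a1 had 0.367 to 0.752 in replicate 1, and Agrn, the gene of a heparan sulphate proteoglycan of synapses, was weakest, with regions at 0.113 and 0.246 and at 0.158 and 0.228.

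Of the 88 brain cell type markers 6 had an open exonic region (6.82%), near the 5.04% of all protein-coding genes. They were 1 of 13 pan-neuronal genes (Rbfox3, the NeuN gene, 0.757 and 1.12 in coding exon 13), 2 of 12 excitatory ones (Gria2, a glutamate receptor gene, 1.41 and 1.33, and Camk2a, 0.848 and 0.788) and 0 of 15 inhibitory ones. Of 12 genes in each glial and vascular list, 1 was an astrocyte gene (Sox9, 0.554 and 0.537 in coding sequence), 1 an oligodendrocyte gene (Mobp, a myelin gene, 0.695 and 0.897 in its 3′ UTR) and 1 an endothelial gene (Flt1, a receptor of vascular growth factor, 1.12 and 0.976), while 0 of 12 microglial markers had one. That list does not hold Spi1, whose strong exonic region is described above. Liver and muscle markers had 0 of 10 and 0 of 8. Of the marker regions above, those of Gria2, Camk2a and Flt1 were centred in noncoding exons of retained-intron transcripts.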

How the data were processed

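DNase-seq peaks, footprints and cut-rate tables of 2 frontal cortex libraries were used. Peak values are the signal column of the deposited peak lists, which the authors normalized for read depth, per the deposited text files. The scale, like the aligner and the callers, is not given in the sources used here. Footprint lists were deposited with 1 constant, 0.01, read as a p-value threshold, and the authors' cut-rate table lists positions with a false discovery rate (q-value) of at most 0.05. The files are on mm10. The longer peak list of each library was taken, peaks of both were merged where they overlapped by at least 1 bp, and merged regions with a peak from each library were kept. When a region held several peaks of a library, the highest value was used. Regions were classed by their centre with the GENCODE vM21 annotation of GRCm38.p6, the same build. Eligible sequence is what meets the same distance limits. Uniqueness is the share of 32-base words found once in the genome. Motifs were 18 consensus strings, and gene lists 17. Genes were named by a rule: the 20 strongest regions, 6 per annotation, the 10 genes with most regions, the 5 widest, the 5 most different between libraries each way and up to 4 per list; not all that it gives are printed. Members and lists were chosen with earlier results of these data known. Scripts used Python 3.11.15, pandas 2.3.3, numpy 2.4.6 and pysam 0.24.0, and were tested on made-up intervals and planted motifs. Alternatives were other peak lists, annotations, distances and overlaps, single libraries, and, chosen after seeing the data, leaving out regions near RefSeq starts.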

Additional observations from a re-analysis of the deposited data

How the results depend on the processing

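No paired analysis was possible because there was 1 group, and no value had a test. Depth is unknown, so weak regions found in 1 library cannot be told apart from ones missed in the other. Results moved where a setting shifted them by more than the standard deviation between libraries, or a count by over 1.5 times. The shorter peak lists gave 639 exonic regions, 49.8% of them coding, a median value of 1.10, a ratio to intronic regions of 1.01, footprints in both libraries in 93.4%, 16.2 coding regions per Mb and the CTCF motif in 10.5%. With only exons of protein-coding transcripts, 63.1% were coding, 82.9% had footprints in both and 7.04% had the CTCF motif. With starts of protein-coding genes only, 55.4% were coding. With the 3′ ends of gene models only, there were 1677 regions, of which 50.8% were coding and 8.71% had the CTCF motif. Beyond 2 kb from every start, 53.7% were coding, 84.8% had footprints and coding density was 29.8 per Mb. Requiring 50% overlap gave 53.9% coding and 84.4% with footprints. Leaving out regions near a RefSeq start, chosen after seeing the data, gave 53.7% coding. With 1 library left out, which drops the need for a call in both, there were 2040 to 2168 regions, 56.4% to 57.0% coding, with medians of 0.559 to 0.605, ratios of 0.964 to 0.990, footprints in 74.7% to 77.7%, 59.2 to 62.3 coding regions per Mb and the CTCF motif in 4.57% to 5.39%. The ratio to intronic regions passed below 1 there. Causes were not tested otherwise.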

Other observations

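Exonic regions called in a single library, which were not part of the set above, numbered 759 in replicate 1 and 864 in replicate 2, of 24456 and 26423 such regions in all. They were weaker and narrower, with medians of 0.413 and 0.405 and widths of 120 and 127 bp, and 61.3% and 58.7% were centred in coding sequence. The strongest, chosen after their values were seen, included coding sequence of Mid1 (1.03), Ptma, the prothymosin alpha gene (1.02) and Ptp4a3 (1.02) in replicate 1, and of Rab3gap1, a regulator of the vesicle GTPase Rab3 (1.62), and Cyp2t4 (1.37) in replicate 2. These values lay above the 0.787 mean of the medians of the regions called in both libraries.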
